A study of Mus musculus with 47 samples.

Results

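H3K27me3 regions of male mouse liver were compared with and without Ezh1 and Ezh2, the alternative catalytic subunits of polycomb repressive complex-2 (PRC2). The comparison covers 32371 autosomal regions, 16806 in control liver and 15565 in E1/E2-KO liver, out of 498557 regions and peaks in the 12 lists of the series. Control males were floxed littermates (Ezh2 f/f), and E1/E2-KO males had the genotype Ezh1-/-, EZH2f/f, AC+, in which, by the methods of the study, Cre driven by the albumin promoter removes Ezh2 from hepatocytes. Floxed Ezh2 was thus shared by both groups, Ezh1 was missing in every cell of the E1/E2-KO mice, and the non-parenchymal cells of those livers still had Ezh2. Each group comprised 4 livers from mice 7 weeks of age, and each precipitation used 2 µg of antibody with 10 µg of chromatin.

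The reads of the 4 livers were joined before regions were called, so 1 pooled list stands for each group, without a score or a read count. No difference between the groups could therefore be tested against the spread between livers, and the depth behind each list is unknown. A region of the control list with at least 1 bp in a region of the E1/E2-KO list was called kept, and a control region without such overlap was called lost. An E1/E2-KO region without overlap in the control list was called gained. These words describe whether a region was called, not how strong its signal was. Since whole liver was used, a change of the mark within hepatocytes and a change in the make-up of the tissue cannot be told apart. Wilson 95% intervals are given for shares, and they cover counting error only and treat neighboring regions as independent.

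PRC2 trimethylates lysine 27 of histone H3, and the mark is bound by polycomb repressive complex-1 (PRC1), which compacts chromatin and holds genes silent. In differentiated tissue the mark lies over genes of other lineages, with developmental regulators such as the Hox genes among the best known, and often spreads over domains of many kilobases. Expressed genes of the tissue itself are generally free of it.

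Of the 16806 control regions, 4180 were lost (24.9%, interval 24.2% to 25.5%) and 12626 were kept. Of the 15565 E1/E2-KO regions, 3114 were gained (20.0%, interval 19.4% to 20.6%). The control regions spanned 765 Mb, or 31.0% of the autosomes, and the E1/E2-KO regions 750 Mb, or 30.3%, so the called mark was nearly as extensive in E1/E2-KO as in control liver. Lost regions spanned 98.7 Mb and gained regions 77.9 Mb.

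Individual genes within these regions differed in the upstream content of CpG, the dinucleotide that marks the promoters at which PRC2 is typically found. The 250 bases before the annotated gene start are shown for 5 genes, with CpG dinucleotides in capitals, read from the NCBIM37 (mm9) genome 5′ to 3′ on the gene's own strand. A1bg and Ankdd1b started in lost regions, Prok2 in a kept region, and Map3k5 and Gcnt2 in gained regions. The gained region at the start of Map3k5 was chr10:19647601-19664800.
A1bg (chr15:60752826-60753075, minus strand): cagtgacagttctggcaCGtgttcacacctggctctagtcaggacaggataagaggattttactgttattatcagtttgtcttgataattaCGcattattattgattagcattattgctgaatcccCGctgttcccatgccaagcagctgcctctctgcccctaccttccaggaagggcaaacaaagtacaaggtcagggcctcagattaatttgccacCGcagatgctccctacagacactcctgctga
Ankdd1b (chr13:97241116-97241365, minus strand): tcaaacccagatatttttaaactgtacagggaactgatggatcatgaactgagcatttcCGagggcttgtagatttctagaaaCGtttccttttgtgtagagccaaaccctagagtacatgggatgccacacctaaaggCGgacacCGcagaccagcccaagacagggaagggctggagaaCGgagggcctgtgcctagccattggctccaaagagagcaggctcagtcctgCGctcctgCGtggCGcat
Prok2 (chr6:99676387-99676636, minus strand): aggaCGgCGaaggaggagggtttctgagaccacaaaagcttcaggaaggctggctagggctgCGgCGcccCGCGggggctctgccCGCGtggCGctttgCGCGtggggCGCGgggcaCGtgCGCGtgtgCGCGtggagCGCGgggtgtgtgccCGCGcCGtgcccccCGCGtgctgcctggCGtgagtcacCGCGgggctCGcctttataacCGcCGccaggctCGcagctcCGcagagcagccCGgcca
Map3k5 (chr10:19654028-19654277, plus strand): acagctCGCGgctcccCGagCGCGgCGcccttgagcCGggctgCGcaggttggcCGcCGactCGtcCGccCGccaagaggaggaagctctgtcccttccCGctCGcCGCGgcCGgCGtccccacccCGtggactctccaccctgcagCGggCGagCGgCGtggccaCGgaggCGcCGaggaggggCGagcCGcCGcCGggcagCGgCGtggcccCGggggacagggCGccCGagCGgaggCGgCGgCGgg
Gcnt2 (chr13:40955251-40955500, plus strand): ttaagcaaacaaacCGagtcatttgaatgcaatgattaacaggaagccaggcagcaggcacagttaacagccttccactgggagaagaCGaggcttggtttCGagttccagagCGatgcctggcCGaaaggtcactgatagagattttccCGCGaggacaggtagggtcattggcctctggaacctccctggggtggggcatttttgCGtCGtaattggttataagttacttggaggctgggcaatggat

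The window of A1bg held 4 CpG and that of Ankdd1b, which encodes an ankyrin repeat protein, held 8. Prok2, which encodes a secreted prokineticin, had 34. Among the gained genes, Map3k5, which encodes a stress-activated kinase, had 40, whereas Gcnt2, the gene of a branching glycosyltransferase, had 9. Over all 21418 autosomal protein-coding genes the median was 9 (interquartile range 3 to 18). It was 6 (2 to 15) for the 1109 genes whose start lay in the control list only and 8 (3 to 16) for the 6608 with a start in both lists. For the 2113 with a start in the E1/E2-KO list only it was 10 (4 to 19). These ranges overlapped widely, and the 5 windows shown differ more than these medians do.

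Lost and gained regions were narrower than kept ones. The median width was 20000 bp for lost regions (interquartile range 14800 to 28000), 36000 bp for kept control regions (22800 to 62400) and 22200 bp for gained regions (17200 to 29200). The share of control regions that were lost fell at every step of width, from 54.8% of the 482 regions under 10 kb to 45.6% at 10 to 20 kb, 27.5% at 20 to 40 kb, 9.23% at 40 to 80 kb and 1.56% of the 2179 regions of 80 kb and over. The gained share of E1/E2-KO regions followed the same steps, from 48% under 10 kb (interval 41.2% to 54.9%) to 37.0%, 25%, 7.17% and 1.20%. An overlap of 1 bp is reached more readily by a wide region than by a narrow one.

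**Figure D1:**
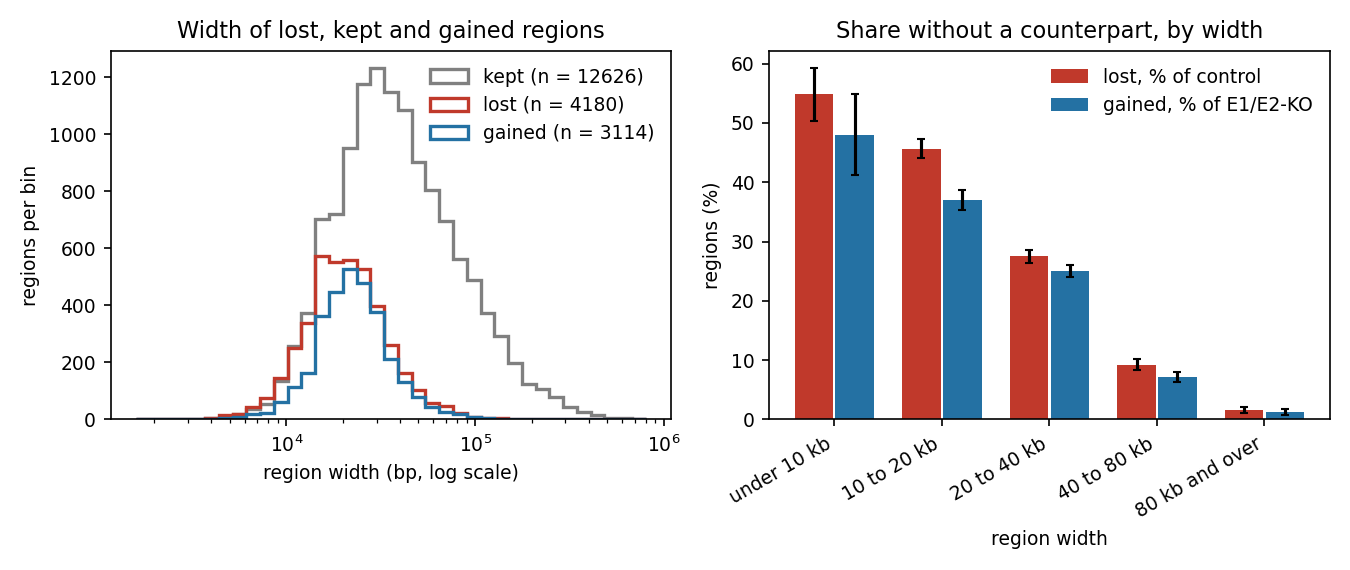
Left, number of lost, kept (control) and gained autosomal H3K27me3 regions against region width on a log axis. Right, percent of control regions lost and of E1/E2-KO regions gained in 5 width classes, with Wilson 95% intervals as bars. Both shares drop from 54.8% and 48% under 10 kb to 1.56% and 1.20% at 80 kb and over.

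Few wide domains disappeared as a whole. The widest lost region that held a protein-coding gene lay at chr17:67356401-67493600 (137200 bp), inside Ptprm, the gene of a receptor tyrosine phosphatase. The next, at chr11:106494801-106630800 (136000 bp), held Pecam1, which encodes an adhesion molecule of endothelial cells, together with Gm885 and Polg2, the latter coding for a subunit of the mitochondrial DNA polymerase. It was followed by chr15:60640801-60773200 (132400 bp) with Fam84b and A1bg, and by chr9:23097601-23218400 (120800 bp) in Bmper, whose product binds bone morphogenetic proteins. The remaining 2 were chr1:189549601-189666000 (116400 bp) in Esrrg, an orphan nuclear receptor gene, and chr4:103648401-103762400 (114000 bp) in Dab1, an adaptor of the Reelin pathway.

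The widest gained region with a gene was chr10:19826001-20010800 (184800 bp), over the 3′ part of Map3k5 and Mtap7, which encodes a microtubule-binding protein. The others were chr13:40934001-41055600 (121600 bp) at Gcnt2, chr18:74793201-74905200 (112000 bp) at Myo5b, a motor of apical membrane recycling, and chr6:94573601-94685200 (111600 bp) at Lrig1, a brake on epidermal growth factor receptors. They ended with chr3:122102401-122210000 (107600 bp) at Bcar3, an adaptor protein gene, and chr4:46857601-46959600 (102000 bp) at Gabbr2, a subunit of the GABA-B receptor.

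At the level of bases, 577 Mb were shared by both lists, which is 75.4% of the control and 77.0% of the E1/E2-KO bases. Of the 188 Mb of control bases outside the E1/E2-KO regions, 52.5% lay in wholly lost regions, 38.6% (72.7 Mb) at the ends of kept regions and 8.94% (16.8 Mb) in gaps inside kept regions. The 173 Mb of E1/E2-KO bases outside control regions were split in a similar way, with 45.1% in gained regions, 44.5% (76.7 Mb) at the ends of kept regions and 10.4% (18 Mb) filling gaps inside them. Shrinkage at the ends of kept regions was thus offset by growth at other ends, 72.7 Mb against 76.7 Mb.

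**Figure D2:**
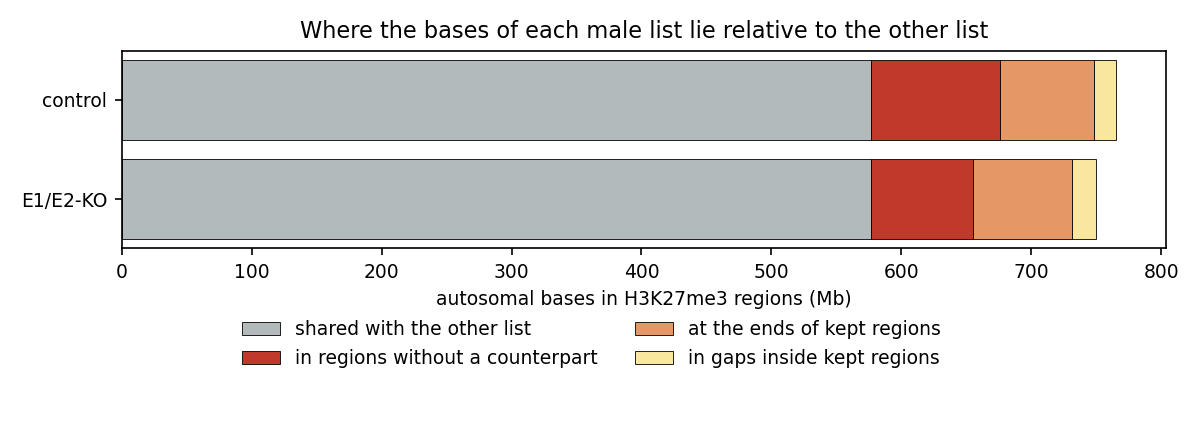
Autosomal bases (Mb) of the control and E1/E2-KO male lists, split into bases shared with the other list, bases of regions without a counterpart, bases at the ends of kept regions and bases in gaps inside kept regions. The shared part is 577 Mb in both bars, and the parts at region ends are of like size, 72.7 and 76.7 Mb.

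Of the kept control regions, 4707 (37.3%) lay wholly inside the E1/E2-KO list, 6845 (54.2%) from 50% up to under 100%, and 1074 (8.51%) less than 50% inside it. The same classes in the opposite direction held 33.3%, 57.6% and 9.09% of the kept E1/E2-KO regions. At 25252 ends of kept control regions, 8772 (34.7%) had been cut back, by a median of 4400 bp, and at 24902 ends of kept E1/E2-KO regions 9403 (37.8%) reached beyond the control list, also by a median of 4400 bp.

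Splitting and joining were about as frequent. A kept control region overlapped more than 1 E1/E2-KO region in 1781 of 12626 cases (14.1%, interval 13.5% to 14.7%), and 261 of these overlapped 3 or more. A kept E1/E2-KO region overlapped more than 1 control region in 1922 of 12451 cases (15.4%, interval 14.8% to 16.1%). The 2113 gaps that opened in control regions had a median of 3600 bp (interquartile range 2800 to 9200), and 475 of them were no longer than 2400 bp, the gap setting of the region caller. The 2288 gaps that closed had a median of 4000 bp, and 525 of them were no longer than 2400 bp. Regions this close were thus left separate in both lists. Splitting increased with width, from 0.956% of kept control regions at 10 to 20 kb to 17.6% at 40 to 80 kb and 40.7% at 80 kb and over, and joining increased likewise, from 2.23% to 19.5% and 42.9%. The widest class retained 89.6% of its bases, compared with 93.2% under 10 kb, 88.9% at 10 to 20 kb, 84.3% at 20 to 40 kb and 83.0% at 40 to 80 kb.

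Overlapping regions formed 10338 groups, of which 7524 (72.8%) paired 1 control with 1 E1/E2-KO region. In a further 1020 groups 1 control region faced several E1/E2-KO regions, in 1152 several control regions faced 1, and in 642 several faced several. Among the 7524 pairs the median ratio of E1/E2-KO to control width was 1.01 (interquartile range 0.839 to 1.25), with 45.3% narrower, 51.2% wider and 3.59% of equal width. Both boundaries were identical in 151 pairs. The boundaries moved inward at 41.8% of the 15048 ends and outward at 45.9%, each by a median of 4000 bp, and 22.8% moved by more than 10 kb. Sorted by control width, pairs under 10 kb had a median ratio of 2.08 and pairs at 40 to 80 kb a median of 0.951, and sorting by E1/E2-KO width turned the order around, with 0.746 and 1.07. A dependence on width that reverses with the list used for sorting is no change of narrow or wide domains in 1 direction.

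The 4 kept regions with a gene that lost the most bases are given first. The region at chr2:169489201-169734400 in Tshz2, a zinc finger gene, lost 202000 of 245200 bp and kept 17.6%. At chr6:38832801-39029200, in the thromboxane synthase gene Tbxas1, 140400 of 196400 bp were lost and 28.5% was kept. A region at Gm5356 (chr8:91640801-91807600) kept 24.9%, and another over Eif4e3, Gpr27 and Prok2 (chr6:99476401-99819600) lost 124000 bp but kept 63.9%. The 4 gene-bearing regions cut into the most pieces each overlapped 6 E1/E2-KO regions and retained most of their bases. They were the 650400 bp domain over the dopamine D2 receptor gene Drd2, Ankk1, Ttc12 and the neural adhesion gene Ncam1 (94.7% kept), the 480400 bp domain in the neurodevelopmental gene Auts2 (92.9%), the 438000 bp domain at the transcription factor gene Glis3 (75.2%) and a 391200 bp domain at Rps13-ps1, annotated as protein-coding (92.0%).

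Lost regions lay away from genes more often than kept and gained ones. A promoter window, taken as 1 kb to each side of the start of a protein-coding gene, was touched by 530 of 4180 lost regions (12.7%, interval 11.7% to 13.7%), 5064 of 12626 kept regions (40.1%, 39.3% to 41%) and 799 of 3114 gained regions (25.7%, 24.2% to 27.2%). No protein-coding gene was touched by the window or the body in 59.5% of lost, 38.3% of kept and 46.9% of gained regions. Within the single width class of 20 to 40 kb the promoter shares were 11.7%, 32.9% and 24.0%, in the same order. When both lists were cut to their widest 50%, which also removes narrow counterparts of wide regions, the shares were 26.7% lost, 51.0% kept and 38.8% gained. Among wide regions set against the whole other list, a setting chosen after seeing the data, they were 15.8%, 48.0% and 31.9%. With all annotated genes they were 19.2%, 48.7% and 33.6%.

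Gene starts numbered 5.68 per Mb in lost, 10.7 in kept and 11.6 in gained regions, beside 8.95 per Mb over the autosomes. Gene deserts, here gaps of at least 1 Mb between protein-coding genes, made up 22.2% of the bases of lost regions, 5.88% of kept and 10.7% of gained regions, beside 18% of the autosomes. At least 3 genes were touched by 0.766% of lost, 6.76% of kept and 2.15% of gained regions. The median distance of lost regions to the nearest kept control region was 51200 bp, and 34.9% lay more than 100 kb away. For gained regions the median distance to the nearest kept E1/E2-KO region was 40400 bp, with 25.3% more than 100 kb away.

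Lost regions were also poorer in GC and CpG than kept and gained regions. Lost regions had a GC content of 40.6% and 7.11 CpG per kb, below the 41.9% and 8.51 of the autosomes, whereas kept regions had 44.7% and 10.4, and gained regions 43.5% and 9.55. The median region had 6.28 CpG per kb if lost (interquartile range 4.85 to 8.51), 9.63 if kept (7.32 to 12.1) and 8.81 if gained (6.04 to 11.8), so the ranges overlapped. At 20 to 40 kb the values were 7.06, 9.80 and 9.24 CpG per kb. At gene starts, CpG-rich sequence (an observed to expected ratio of at least 0.6 and a GC content of at least 50% within 500 bp to each side) was found for 37.2% of starts in the control list only (interval 34.4% to 40.1%), 37.8% in both lists (36.7% to 39.0%) and 50.4% in the E1/E2-KO list only (48.3% to 52.5%), beside 45.1% of all starts.

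Active marks mapped in livers of the same groups had more peaks per Mb in gained regions than in lost or kept regions. H3K27ac, which marks active promoters and enhancers, had 27.5 control peaks per Mb in regions that gained H3K27me3, compared with 4.75 in lost and 5.88 in kept regions and 12.1 over the autosomes. In the E1/E2-KO list the densities were 49.8, 14.9, 17.0 and 23.0 per Mb, so the order was the same. The E1/E2-KO H3K27ac list was also longer, with 55055 autosomal peaks against 28862 in control, and a rise between the lists is read against that background. H3K4me1, a mark of enhancers, had 52.6 control and 47.6 E1/E2-KO peaks per Mb in gained regions, 21.8 and 23.0 in lost and 25.3 and 31.3 in kept regions, beside 28.8 and 28.1 over the autosomes. An H3K4me1 peak of the control list was present in 52.0% of kept regions, and a peak of the E1/E2-KO list in 57.5%, above the 46.5% and 46.4% of gained regions. In lost regions the control share was 28.8%. For H3K27ac the shares were 34.5% and 43.4% of gained, 21.6% and 39.4% of kept, and 9.35% and 19.8% of lost regions.

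**Figure D3:**
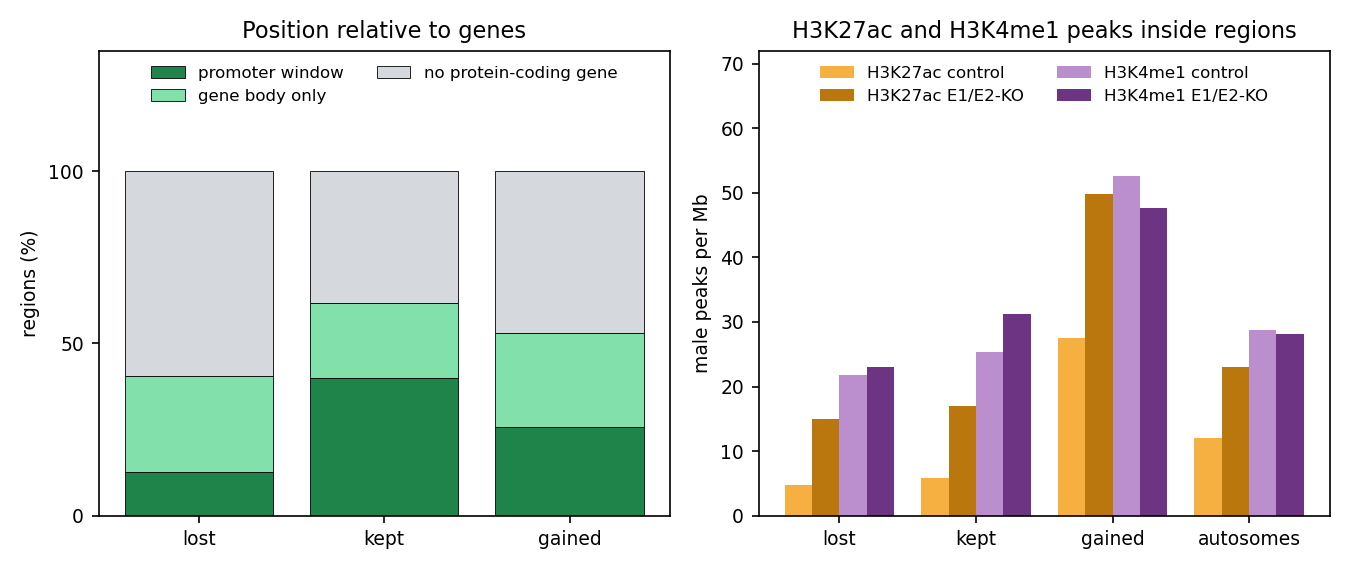
Left, percent of lost, kept and gained regions that touch a promoter window, a gene body only, or no protein-coding gene. Right, male H3K27ac and H3K4me1 peaks per Mb in control and E1/E2-KO liver inside these regions and over the autosomes. Lost regions have the smallest promoter share (12.7%), and gained regions have the most control H3K27ac peaks (27.5 per Mb).

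H3K27ac peaks were also counted at gene starts. A control H3K27ac peak within 1 kb was present at 1489 of the 2113 starts that lay in the E1/E2-KO list only (70.5%, interval 68.5% to 72.4%), at 41.5% of those in the control list only, at 18.7% of those in both lists and at 56.8% of those in neither. In E1/E2-KO liver these shares were 75.4%, 52.6%, 33.7% and 59.3%. An H3K4me1 peak lay at 57.5% of the starts in the E1/E2-KO list only by the control H3K4me1 list and at 51.1% by the E1/E2-KO list, beside 47.6% and 57.1% of the starts in both H3K27me3 lists. Most gene starts that lay in H3K27me3 regions of the E1/E2-KO list only had an H3K27ac peak in both H3K27ac lists, 1485 of 2113 (70.3%, interval 68.3% to 72.2%), and pooled whole-liver lists do not show whether both marks lay in the same cells.

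Coverage, the percent of the bases of a gene inside H3K27me3 regions, was then compared for the 21418 autosomal protein-coding genes. Genes are counted by identifier, and since they carry 21281 symbols, some symbols count more than once, among them 1 each in the lists of chemokines and receptors (Ccl25), solute carriers and vomeronasal receptors. Repeats also account for 2 of the potassium channel entries and 4 of the homeobox, Sox, T-box, Gata and Fox entries. A gene is said to have fallen or risen where coverage changed by at least 25 percentage points between the pooled lists, and no test stands behind these words. Neighboring genes of a family can lie in the same region, so counts of genes are not counts of separate changes. Coverage fell for 1348 genes (6.29%) and rose for 2202 (10.3%). In control liver 6676 genes (31.2%) had 50% or more of their bases in regions, against 7254 (33.9%) after loss of both enzymes, and 5610 genes had it in both lists. Coverage went from 100% to 0% for 369 genes and from 0% to 100% for 645. With a change of at least 50 points the counts were 820 and 1398, and with all annotated genes 2255 and 3343. A control H3K27ac peak was present at the start of 60.7% of the genes that rose (interval 58.7% to 62.7%) and 34.6% of those that fell (32.2% to 37.2%), beside 45.6% of all genes.

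The longest genes that went from 100% to 0% were Pecam1 (96412 bp), Rcsd1, Ankdd1b, Setd7, Me2, Slc25a36, Tmem71 and Sh2d3c (34458 bp). Setd7 encodes a lysine methyltransferase, Me2 the mitochondrial malic enzyme, and Slc25a36 a mitochondrial nucleotide carrier. In female liver, where the lists are also pooled, Pecam1 coverage stood at 87.6% for controls and at 0% without Ezh1 and Ezh2, that of Setd7 79.8% and 0.878%, and that of Me2 100% and 0%, whereas Ankdd1b was at 0% in both.

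Among the longest genes that went from 0% to 100% were Mtap7 (133117 bp), Prkcz, Pde9a, Hc, Rnf43, Abcc2 and Abcc6 (53923 bp). Hc encodes complement component C5 and Abcc2 the exporter of conjugated bilirubin into bile. Prkcz encodes an atypical protein kinase C, Pde9a a cyclic GMP phosphodiesterase and Rnf43 a ubiquitin ligase that limits Wnt receptors. These 7 genes rose in female liver too, from between 0% and 21.6% to between 29.4% (Pde9a) and 92.3% (Rnf43).

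Marker genes of hepatocytes were compared without a test of the group. Of 14 matched markers, 8 rose and 1 fell, or 57.1% and 7.14%, beside 10.3% and 6.29% of all genes. At least 50% was covered for 8 of them in E1/E2-KO (57.1%, beside 33.9% of all genes) and for 1 in control (7.14%, beside 31.2%), and the median went from 0% to 70.0%, with a median over all genes of 0% in both lists. The full list is given because of this shift, beyond the 4 members that the naming rule selects (Cyp2e1, G6pc, Tat and Fgb). G6pc, the last enzyme of glucose release, Tat, which degrades tyrosine, and Fgb, the fibrinogen beta chain, went from 0% to 100%. Apoa1, the main protein of high-density lipoprotein, Asgr1, a subunit of the asialoglycoprotein receptor, and Hp, haptoglobin, went from 0% to 100% as well. Hnf4a, a master regulator of the hepatocyte, went from 0% to 89.1% and Pck1, which starts gluconeogenesis, from 0% to 51.0%. Alb, Apob, Cps1, Serpina1a and Ttr were at 0% in both lists.

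Cyp2e1, a P450 enzyme that oxidizes ethanol, went the other way, from 100% to 0%. Its coverage in female liver was 100% in both lists. Of the 14 hepatocyte markers, 6 rose and none fell in female liver, beside 6.56% rises and 7.62% falls over all genes in females. Among those that rose were G6pc, Fgb and Asgr1 at 100% and Hnf4a at 71% in E1/E2-KO females against 0% in controls. H3K27ac peaks stood at the starts of 8 of the 14 genes in control and of 11 in E1/E2-KO male liver, beside 45.6% and 52.6% of all genes.

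Some markers of other liver cells changed too, beside 6.29% falls and 10.3% rises over all genes, of which 31.2% in control and 33.9% in E1/E2-KO were at least 50% covered. Among 15 endothelial markers, 5 fell and 1 rose, and the number at least 50% covered went from 11 to 7. Pecam1 and the scavenger receptor gene Stab1 went from 100% to 0%, its relative Stab2 from 87.3% to 0%, and the cadherin gene Cdh5 from 100% to 26.3%, whereas Tie1, a receptor kinase gene, went from 0% to 83.8%. In female liver Pecam1, Stab1 and Stab2 also fell to 0%, and Cdh5 went from 61.8% to 10.4%. Tie1 went from 66.8% to 28.6% there, opposite to males. Kdr, Robo4 and Clec4g were at 100% in both lists. Of 15 stellate cell markers, 3 fell, namely Vim (99.4% to 0%), the smooth muscle actin gene Acta2 (100% to 49.3%) and Rgs5 (100% to 55.5%), and none rose. Of 14 Kupffer cell and macrophage markers, 3 fell, with Ptprc at 99.3% and 56.4%, Timd4 at 41.6% and 0% and Cd163 at 96.3% and 67%, while Clec4f, Marco and the complement genes C1qa, C1qb and C1qc were at 100% in both. All 9 that were at least 50% covered in control were so in both lists, beside 5610 of 6676 of all genes. In female liver Ptprc stood at 73.1% and 84.8%, Timd4 at 0% and 23.4% and Cd163 at 85.5% and 54.1%. Among the 10 cholangiocyte and 12 lymphocyte markers 1 each rose in male liver, the latter being Cd4 (49.7% to 100%), and none fell, and among 11 neuron markers 1 fell, Snap25 (100% to 57.7%). In female liver Cd4 was at 100% in both lists, and Snap25 was at 82.9% and 92.5%. The part of cell composition in the change of the H3K27me3 lists was not tested.

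**Figure D4:**
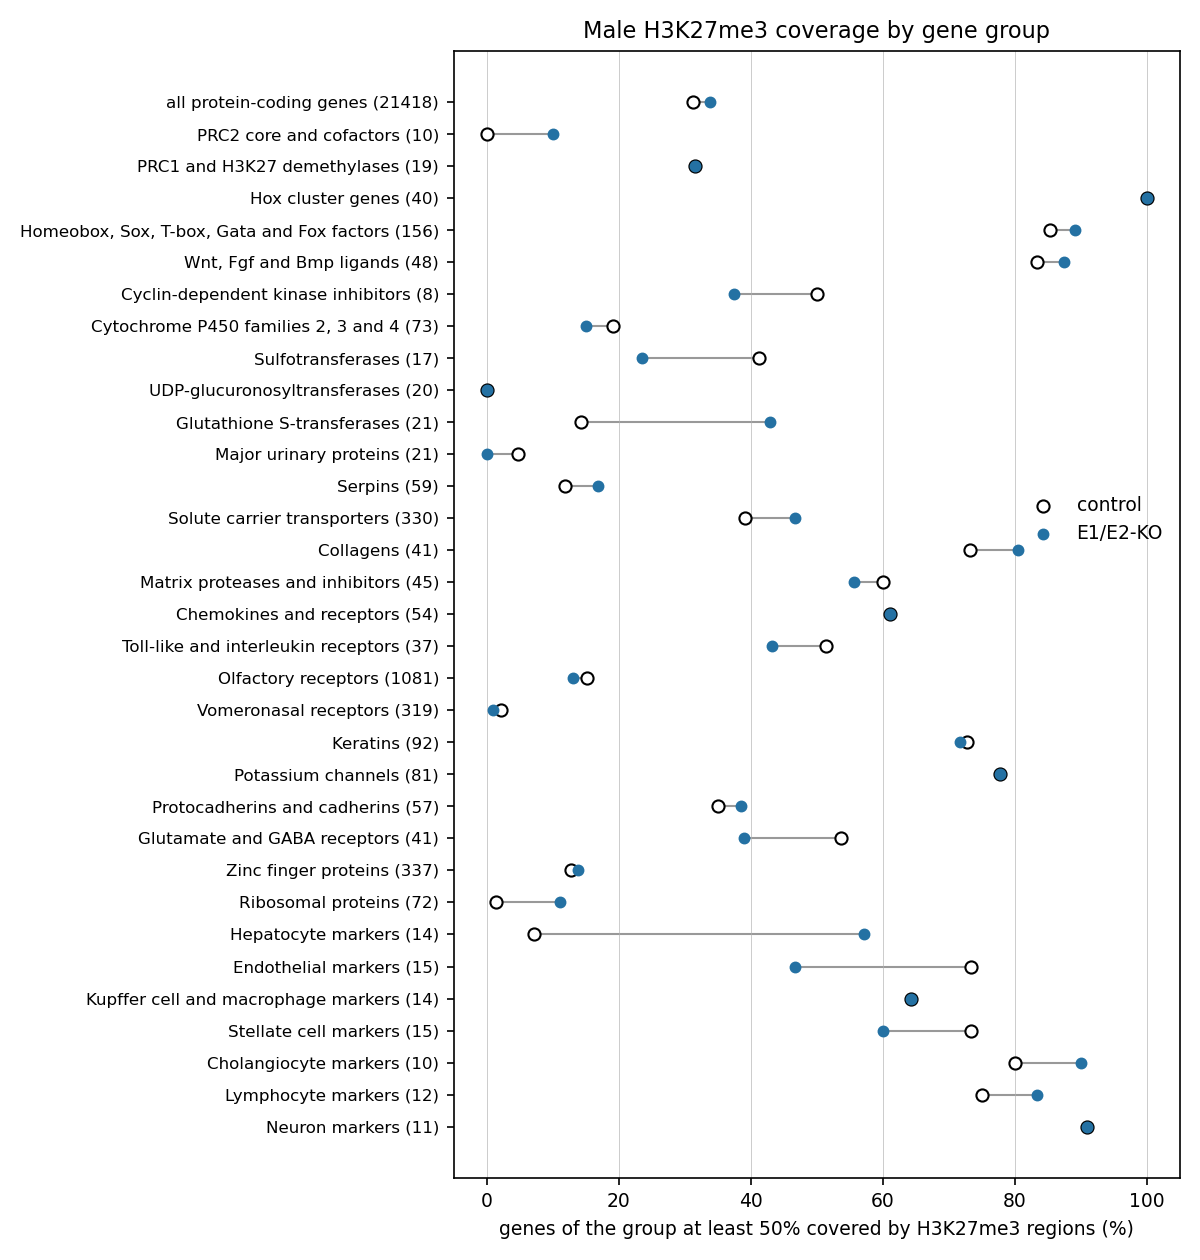
Percent of the genes of each group (number of gene identifiers in brackets) with at least 50% of their bases in male H3K27me3 regions, control as open and E1/E2-KO as filled circles. Hox genes stand at 100% in both lists, hepatocyte markers move from 7.14% to 57.1%, and endothelial markers from 73.3% to 46.7%.

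Developmental genes are the classic targets of PRC2, and their counts stand beside those of all genes, of which 31.2% were at least 50% covered in control and 33.9% in E1/E2-KO, 6.29% fell and 10.3% rose. Of the 6676 covered in control, 5610 were covered in both lists. The 39 Hox cluster genes, which pattern the body axis and stand in the annotation as 40 entries (Hoxa3 has 2), had a median coverage of 100%, all were at least 50% covered in both lists, and the coverage of none differed between the lists. Of the homeobox, Sox, T-box, Gata and Fox factors, 133 (85.3%) were at least 50% covered by control and 139 (89.1%) by E1/E2-KO regions, 132 of them in both, with 3 falls (1.92%) and 7 rises (4.49%). The rises included Foxa3, a forkhead factor of liver, Tbx10 and Foxh1, each from 0% to 100%, and Foxp4, from 9.59% to 100%. In female liver Foxa3 and Foxh1 also went from 0% to 100%, and Foxp4 from 24.2% to 72.2%. Tbx10 went the other way there, from 100% to 0%. Of 48 Wnt, Fgf and Bmp ligands, 40 and 42 were at least 50% covered and 38 in both lists, with 2 falls (4.17%) and 3 rises (6.25%). Of their starts, 47 lay in control and 44 in E1/E2-KO regions, 4 in control only and 1 in E1/E2-KO only. Over all genes, 30.9% of starts lay in both lists, 5.18% in control only and 9.87% in E1/E2-KO only. Fgf22 went from 0% to 100%, Fgf12 from 69.3% to 28.4% and Fgf10 from 39.1% to 70.9%. Bmp1, counted in this list and among its rises although it encodes a procollagen protease and not a ligand, went from 5.48% to 100%. The female values were 0% and 100% for Fgf22, 39.3% and 53.8% for Fgf12, 11.8% and 52.3% for Fgf10, and 23.9% and 100% for Bmp1. H3K27ac peaks stood at the starts of 1 Hox gene in the control list and of 13 in the E1/E2-KO list, beside 45.6% and 52.6% of all starts and an E1/E2-KO list of 55055 peaks against 28862, while all Hox starts lay in H3K27me3 regions of both groups. The control male H3K27ac list was shorter than every other H3K27ac list of the series.

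Among genes of the polycomb machinery, the core subunits Eed, Suz12 and Ezh2 and the histone chaperone Rbbp4 were at 0% in both lists. Ezh1 itself went from 1.63% to 53.1%, and in female liver from 0% to 53.1%. The E1/E2-KO mice carry a disrupted Ezh1 allele in all cells, and the part of that allele in the called region was not tested. The other members changed little, such as the cofactors Phf19 (35.3% and 44.7%) and Aebp2 (37.5% and 31.8%). Of 19 PRC1 and demethylase genes, 3 fell (15.8%) and 2 rose (10.5%), beside 6.29% and 10.3% of all genes. Bmi1, a PRC1 ring finger subunit, went from 94.2% to 2.66%, Phc1 from 81.4% to 20.1% and Pcgf6 from 34.1% to 0%, and the chromobox gene Cbx2 went from 40.0% to 75.9%. Of 8 cyclin-dependent kinase inhibitors, which halt the cell cycle, 2 fell and none rose, a list too short to read against those shares. Cdkn1a (p21) went from 100% to 0% in both male and female liver, and Cdkn3, which encodes a phosphatase, from 29.1% to 0% in males. Cdkn2a, Cdkn2b and Cdkn1c were at 100% in both male lists.

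Families of drug and steroid metabolism are given beside 6.29% falls and 10.3% rises over all genes, with no test of a difference. Of 21 glutathione S-transferase genes, whose enzymes conjugate electrophiles, 9 rose (42.9%) and none fell. Neighbors such as Gstt3 (chr10:75236860-75244159) and Gstt1 (chr10:75246558-75261329) can lie in 1 region, so these need not be 9 separate changes. Gstm3, Gsta4, Gstt1, Gstt3 and Gstm6 went from 0% to 100%, and in female liver Gstt1 and Gstt3 rose to 91.0% and 100% while Gstm3, Gsta4 and Gstm6 stayed at 0%. Of 73 cytochrome P450 genes of families 2, 3 and 4, 11 fell (15.1%) and 6 rose (8.22%). Cyp2b10, the phenobarbital-inducible P450, and Cyp2b19 went from 100% to 0%, and Cyp3a13 and Cyp4f40 from 0% to 100%. Of 17 sulfotransferases, 5 fell (29.4%) and none rose, with Sult3a1 and Sult2a6 at 100% and 0%, Sult1c1 at 67% and 15.1%, and Sult6b1 at 100% and 69.1%. All 20 UDP-glucuronosyltransferase genes were at 0% in both lists, beside 9696 of all 21418 genes. Of 21 major urinary protein genes, carriers of pheromones in urine, only Mup5 was covered, at 100% in the control list and 0% in the other. These families include near-identical copies, to which short reads cannot always be assigned, so single members are uncertain.

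More transporter genes rose than fell. Of 330 solute carrier genes, 58 rose and 21 fell, or 17.6% and 6.36%, beside 10.3% and 6.29% of all genes. Slc22a4, an ergothioneine transporter, and Slc6a13, a GABA and taurine carrier, went from 0% to 100%. In female liver Slc6a13 went from 0% to 94.7%, whereas Slc22a4 went from 49.3% to 0%. Of 59 serpins, 10 rose (16.9%) and 6 fell (10.2%), with Serping1, the complement C1 inhibitor, and Serpina9 at 0% and 100%, and Serpinb2 at 100% and 0%. Of 72 ribosomal protein genes, which are expressed in every cell, 12 rose (16.7%) and none fell, and 8 were at least 50% covered in E1/E2-KO liver (11.1%, beside 33.9% of all genes) against 1 in control (1.39%, beside 31.2%). Rps28 went from 0% to 100%, and Rps27l and Rps15 from 0% to 84.8% and 74.8%. Of 337 zinc finger genes, 26 rose and 17 fell, near the shares of all genes, with Zfp184, Zfp956 and Zfp238 at 0% and 100% and Zfp330 at 100% and 0%.

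Matrix and immune genes are likewise given beside 10.3% rises and 6.29% falls over all genes. Of 41 collagens, 5 rose (12.2%) and 2 fell (4.88%), with Col5a3 (21.1% to 93.8%), Col15a1 (30.3% to 92.4%) and Col24a1 (35.2% to 68.6%) above and Col25a1 (69.5% to 30.9%) below their control coverage. Of 45 matrix proteases and inhibitors, 6 rose (13.3%) and 7 fell (15.6%), among them Mmp15 from 0% to 100% and Adamts4, an aggrecanase, from 100% to 0%, with Mmp20 at 16.6% and 100% and Adamts7 at 0% and 78.5%. Of 54 entries of chemokines and receptors, 5 rose (9.26%) and 7 fell (13.0%), and of 37 Toll-like and interleukin receptors, 4 rose (10.8%) and 6 fell (16.2%). Cxcl12, the ligand of Cxcr4, Cxcl9 and Ccl9 went from 0% to 100%, and the eotaxin receptor gene Ccr3 from 100% to 0%. Tlr2 and Tlr11, sensors of microbial products, went from 100% to 0%, Il22ra1, the receptor of interleukin-22 on epithelium, from 0% to 100%, and Il22ra2, its soluble decoy, from 98.4% to 0%.

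Neuronal, epithelial and sensory families are given beside the 5610 of 6676 genes at least 50% covered in control that were so in both lists and beside 6.29% falls and 10.3% rises over all genes. Of 81 potassium channels, 63 were at least 50% covered in each list and 60 in both, with 4 rises and 4 falls (4.94% each), among them Kcnk6 (100% to 0%) and Kcnj8 (35.5% to 100%). In female liver Kcnk6 also went from 100% to 0%, whereas Kcnj8 went from 97.8% to 0%. Of 92 keratin and keratin-associated genes, 67 were at least 50% covered in control, 66 in E1/E2-KO and 62 in both. There were 4 rises (4.35%) and 5 falls (5.43%), and Krt18, the simple-epithelial keratin that hepatocytes use, went from 0% to 100%. Of 57 protocadherins and cadherins, 5 rose (8.77%) and 6 fell (10.5%). Of 41 glutamate and GABA receptor genes, 6 fell (14.6%) and 2 rose (4.88%), and the number at least 50% covered went from 22 (53.7%) to 16 (39.0%), beside 31.2% and 33.9% of all genes, with 15 in both, with Gabra6 at 100% and 0% and Gabrb2 at 69.1% and 29.3%. In female liver 1 of the 41 fell and 5 rose, beside 7.62% falls and 6.56% rises over all genes. Gabrb2 stood at 24.8% and 46.4% there, and Gabra6 at 0% in both female lists. Of 1081 olfactory receptors, 164 (15.2%) were at least 50% covered by control and 141 (13.0%) by E1/E2-KO regions, beside 31.2% and 33.9% of all genes, with 46 falls (4.26%) and 23 rises (2.13%). Of the 164, 118 were so covered in both lists. At 0% in both lists were 892 of the 1081, beside 9696 of all 21418 genes, and these could not fall. Of 319 vomeronasal receptors, 4 fell (1.25%) and 1 rose (0.313%), and 3 of the 7 at least 50% covered in control were so in both lists.

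The lists of female liver, which came from other mice and were not used to define the classes, contained kept regions far more often than lost or gained ones. Of kept regions, 88.5% overlapped the control female list and 84.0% the E1/E2-KO female list. Of lost regions, 46.0% (interval 44.5% to 47.5%) overlapped the control female list and 21.3% (20.1% to 22.6%) the E1/E2-KO female list, and 33.5% were in the former but not in the latter. Of gained regions, 22.6% (21.1% to 24.1%) overlapped the control female list and 41.4% (39.7% to 43.1%) the E1/E2-KO female list, and 29.2% were in the E1/E2-KO but not in the control female list. By bases, the control and E1/E2-KO female lists covered 35.6% and 16.4% of the sequence in lost regions. They covered 79.7% and 74.7% in kept and 13.0% and 32.7% in gained regions, beside 26.3% and 26.4% of the known autosomal sequence. At the level of genes, 622 of the 1348 that fell in males fell in females (46.1%) and 89 rose (6.60%), and of the 2202 that rose in males 743 rose in females (33.7%) and 170 fell (7.72%), beside 7.62% falls and 6.56% rises over all genes in females. Of genes at least 50% covered in both male lists, 12.5% fell and 7.50% rose in females. Of genes at 0% in both male lists, 1.09% fell and 0.856% rose.

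Chromosomes differed in the share of lost regions more than in the share of gained ones. The lost share was lowest on chromosome 9, with 125 of 872 control regions (14.3%, interval 12.2% to 16.8%), and highest on chromosome 16, with 196 of 640 (30.6%, 27.2% to 34.3%). The gained share ran from 16.3% (13.2% to 19.9%) on chromosome 19 to 27.1% (24.2% to 30.3%) on chromosome 10. Chromosome 10 was high in both, with 30.2% of its control regions lost, and 33.2% of its control bases were outside the E1/E2-KO list. On 6 of 19 autosomes the E1/E2-KO list covered more sequence than the control list, with chromosome 9 at 51.1 Mb against 48.2 Mb. The covered part of a chromosome in control liver ranged from 25.5% on chromosome 3 to 43.7% on chromosome 11, and the lost share on chromosome 11 was 19.7%.

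**Figure D5:**
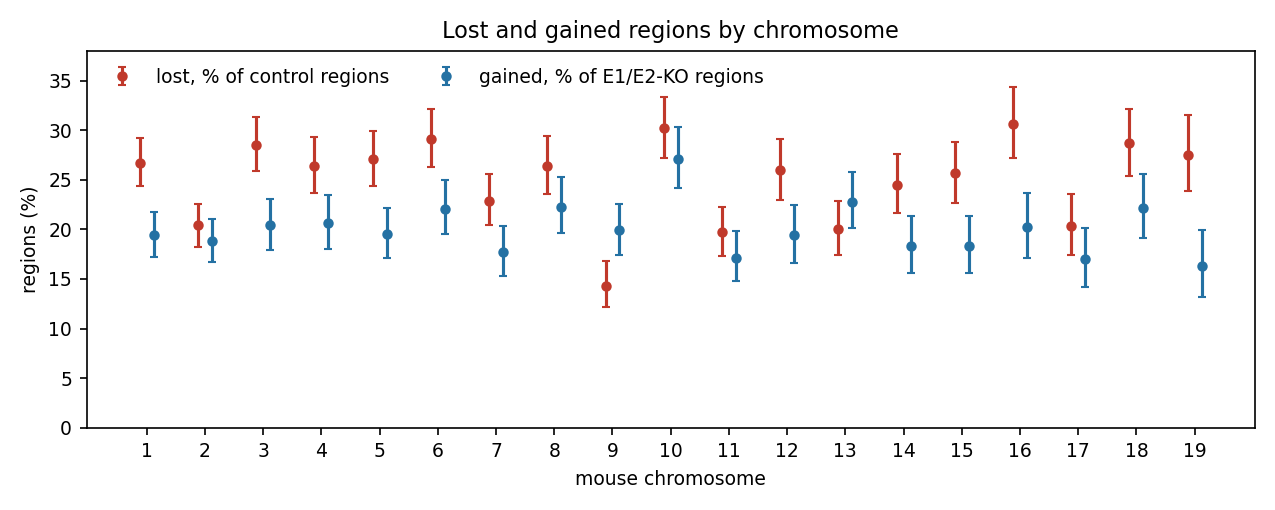
Percent of control male regions lost and of E1/E2-KO male regions gained on each autosome, with Wilson 95% intervals as bars. The lost share runs from 14.3% on chromosome 9 to 30.6% on chromosome 16, and the gained share is highest on chromosome 10 at 27.1%.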

How the data were processed

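H3K27me3 ChIP-seq was carried out by the authors on 4 control and 4 E1/E2-KO male livers. They concatenated the reads of a group, mapped them to mm9 with Bowtie2 2.3.2 and called regions with SICER 1.1 (window 400 bp, gap 2400 bp). MACS2 2.1.1 gave the H3K27ac and H3K4me1 peaks. The formaldehyde concentration differs between the paper and the sample records. The deposited files hold chromosome, start and end only, so no count, score or depth was available, no test was made and no standard deviation is given.

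Coordinates were read as half-open, and 1 base was added to SICER ends so that regions fill 400 bp windows. All regions of the 12 lists lie within the NCBIM37 chromosomes. Overlaps and coverage were computed with Python 3.11.15, NumPy 2.4.6 and pandas 2.3.3, and sequence was read with pysam 0.24.0. This code was tested on simulated data. The X and Y chromosomes were left out. Genes are the 21418 autosomal protein-coding genes of GENCODE release M1, and a gene start is the 5′ end of the gene. Markers were matched by symbol, 14 of 15 for hepatocytes, 14 of 15 for Kupffer cells and 11 of 12 for neurons. Intervals are Wilson 95% intervals.

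The genes named are those at the 6 widest lost and gained regions with a gene, at the 4 kept regions that lost the most bases and the 4 cut into the most pieces, the 8 genes (5 kb or longer) that fell and the 8 that rose the most, the longer first, and up to 4 members of each gene list with the largest change. Other members of a list were named after their values were seen. Female values are given for some of the named genes only. Some genes that this rule selects, and the sequence of 1 promoter, are not reported here. The regions and lists were chosen with earlier results of these data known. Alternatives were the widest 50% of each list, an overlap of 50%, merging within 10 kb, all chromosomes, other promoter windows, all annotated genes, a change of 50 points and gene spans extended by 3 kb. The widest 50% of a list against the whole other list was added after seeing the data.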

Additional observations from a re-analysis of the deposited data

How the results depend on the processing

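No liver could be left out, since the authors pooled livers before calling regions. No paired analysis was possible because each group is 1 pooled list and no result comes from a test. The read depth is unknown, so a position outside the called regions may still have carried some signal. When both lists were cut to their widest 50%, which also removes narrow counterparts of wide regions, 25.8% of control regions were lost and 21.4% of E1/E2-KO regions gained, 27.1% of control and 25.1% of E1/E2-KO bases were outside the other list, and promoter windows were touched by 26.7% of lost, 51.0% of kept and 38.8% of gained regions. With the widest 50% of 1 list set against the whole other list, chosen after seeing the data, 10.3% were lost and 8.02% gained, and the promoter shares were 15.8%, 48.0% and 31.9% (lost, kept, gained). With an overlap of 50% of the region required, the lost share was 31.3% and the gained share 27.3%. After merging within 10 kb, the bases outside the other list were 24.2% and 22.4%, and the split and joined shares 11.7% and 12.5%. With promoter windows of 250 bp to each side the shares were 11.7%, 38.4% and 23.8% (lost, kept, gained), with 3 kb 14.5%, 42.8% and 30.1%, and with all annotated genes 19.2%, 48.7% and 33.6%. Genes that fell and rose numbered 820 and 1398 at a change of 50 points, and 2255 and 3343 with all annotated genes. Adding X and Y moved no share beyond its counting interval. The lost share exceeded the gained share in each setting run for these shares (both width settings, overlap, merging, X and Y). More genes rose than fell in each setting run for genes (X and Y, all genes, 50 points, extended spans), and the promoter share was lowest for lost and highest for kept regions in each run for promoters (both width settings, X and Y, both windows, all genes).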
